A study of Mus musculus with 46 samples.

Results

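miR-652 is a miRNA whose hairpin precursor yields a 5p arm, mmu-miR-652-5p, and a 3p arm, mmu-miR-652-3p. These 2 miRNAs, of 1881 in the table and 815 analysed, were followed through post-mortem storage of mouse heart, liver and brain. The pair was chosen by the measured fall of miR-652-5p with hours of storage at 4 °C, so every 4 °C change below describes the choice and carries no test. The mice were males of a C57BL6 Il1a knock-out strain, their age is not given in the sources used here, and no unmodified strain was included. Each organ was cut into 8 pieces, which were kept cold (4 °C) or at room temperature (RT) over 0, 1, 3, 6, 12, 24, 48 or 96 h before RNA isolation. The methods give another hour in place of 12 h, and the hours of the labels were used. Each array held RNA of 1 piece, so no time point has a replicate, and precision is limited by how many arrays there are. The p-values measure the scatter between pieces of the same organs and not between animals.

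The analysed arrays were 7 heart, 6 liver and 8 brain arrays at 4 °C and 8 of each tissue at RT. The heart array of 0 h at 4 °C, which the study dropped for low quality, was left out. Each tissue and temperature lay on a slide of its own. Per the study's methods the 3 tissues came from the same individual, with other mice for the other temperature, so each pooled rate rests on 1 mouse. Temperature, slide and animal cannot be told apart within a tissue, nor tissue and slide within a temperature. On each slide the array positions ran in the order of hours, except that brain at 4 °C had 12 h and 96 h swapped. Hours and position on the slide therefore cannot be told apart at RT, and hardly at 4 °C. All 9 tissue marker miRNAs were higher on every array of their own tissue than on any array of the others. The RNA integrity number (RIN value) stayed between 7.3 and 8.8 in heart and brain at 4 °C and reached 3.4 in liver at 4 °C. At RT the lowest RIN values were 2.2 in heart, 2.3 in liver and 3.3 in brain. The number of miRNAs detected per array reached 450 in heart at 4 °C and 683 in heart at RT.

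A miRNA hairpin is cut by Dicer into a short duplex, of which 1 strand, the guide, is usually kept in an Argonaute protein while the passenger strand is lost. Argonaute-bound miRNAs are generally shielded from exonucleases. A miRNA finds its targets mainly through its seed, bases 2 to 8. The arms are shown because the results turn on how they differ although they come from 1 precursor. The mature sequences follow, 5′ to 3′ from RefSeq (GRCm38.p6), with the seed in capitals.
mmu-miR-652-5p: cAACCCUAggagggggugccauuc
mmu-miR-652-3p: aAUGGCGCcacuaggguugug
The next line is the hairpin with both arms in capitals, which shows where they lie on either side of the loop.
Mir652 hairpin: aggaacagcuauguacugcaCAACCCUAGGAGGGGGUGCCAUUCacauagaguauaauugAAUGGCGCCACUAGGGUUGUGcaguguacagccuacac

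In GRCm38.p6 the hairpin occupied chrX:142739000-142739097 on the plus strand, within the span of the protein-coding gene Tmem164. The 5p arm was at chrX:142739020-142739043 and the 3p arm at chrX:142739060-142739080. The 5p arm had 24 bases, 62.5% of them G or C, with a run of 5 G. The 3p arm had 21 bases, 57.1% of them G or C. The median over the 680 analysed miRNAs with a RefSeq sequence was 54.5%. None of the 1679 mature mouse names in that table shared a seed with either arm (0 for 5p and 0 for 3p).

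Values are the deposited log2 values after variance stabilizing normalization (VSN), which rescales arrays to each other and flattens dim signals. Both arms were called detected on every analysed array, each by 2 probes of 15 spots. Levels of different probes are not comparable, so the arms were compared only by their change.

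At 4 °C miR-652-5p fell in heart and brain while miR-652-3p moved little. In heart the 5p value was 8.55, 8.38, 8.39, 8.06, 8.03, 6.99 and 5.99 after 1, 3, 6, 12, 24, 48 and 96 h. The last value was 5.87-fold below the first, and the unscaled signal went from 338 to 58.7 units. In the same arrays the 3p value was 6.25, 6.22, 6.45, 5.87, 6.20, 5.70 and 5.59 in order of hours. It therefore ended 1.57-fold below its start.

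In brain at 4 °C the 5p value was 9.23, 9.17, 8.81, 8.77, 8.26, 7.99, 7.85 and 6.85 over the 8 times from 0 to 96 h. It was lower at each of the 7 steps, and 96 h was 5.20-fold below 0 h. The 3p value was 7.68, 7.33, 7.62, 7.30, 7.33, 7.27, 7.79 and 7.04 over the same hours. It was lower at 4 of the 7 steps and ended 1.56-fold below its start.

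Liver at 4 °C had 6 arrays, with none at 6 h or 96 h. Its 5p value was 8.00, 8.85, 9.36, 8.81, 8.06 and 8.19 after 0, 1, 3, 12, 24 and 48 h. Its 3p value was 4.60, 5.79, 5.68, 5.70, 5.27 and 5.88 at those hours. On this scale both arms were lowest in the 0 h array, so a fall of 5p is seen only from 3 h on. The unscaled signals were instead lowest at 24 h, at 131 units for 5p and 18.3 for 3p, against 244 and 21.6 at 0 h.

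**Figure D1:**
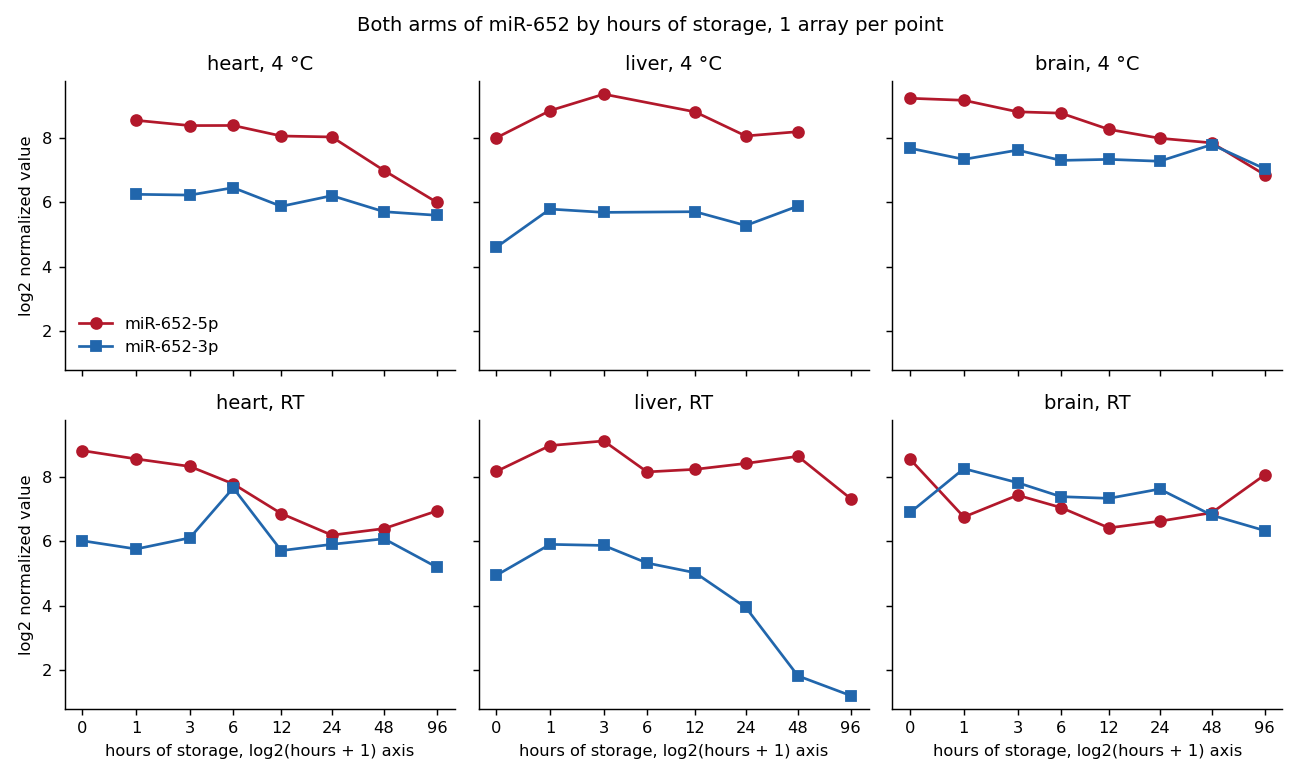
Deposited log2 value of miR-652-5p (red circles) and miR-652-3p (blue squares) against hours of storage on a log2(hours + 1) axis, 1 array per point, by tissue (columns) and temperature (rows). At 4 °C 5p declines in heart and brain with a smaller change of 3p, at RT 5p in heart and brain goes down and partly back up, and 3p in liver at RT goes from 5.90 at 1 h to 1.20 at 96 h.

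A rate, the slope of the log2 value per 24 h with tissue as a block, put the course into 1 number. At 4 °C it was -0.56 ± 0.07 (SE, 21 arrays) for 5p and -0.09 ± 0.07 for 3p. The 5p rate was the lowest of the 815 miRNAs and the 3p rate was number 173 from the lowest, with a median over all of 0.00. Split by tissue, the 5p rate came to -0.65 ± 0.10 for heart, -0.31 ± 0.21 for liver and -0.54 ± 0.10 for brain. For 3p it was -0.18 ± 0.10, 0.24 ± 0.20 and -0.07 ± 0.09. The liver rates depended on the scaling between arrays, from -0.85 to -0.27 for 5p and from -0.34 to 0.29 for 3p, whose sign turned.

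The difference 5p minus 3p within an array is not changed by a factor that scales the whole array. At 4 °C it went from 2.30 to 0.40 in heart, from 3.40 to 2.31 in liver and from 1.55 to -0.18 in brain between the first and last array. Its rate was -0.48 ± 0.06 over the tissues, with -0.46 ± 0.09 in heart, -0.55 ± 0.18 in liver and -0.47 ± 0.08 in brain. Of the 148 miRNAs with both arms analysed, 4 had a lower rate.

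At RT the 3p arm was called lower with hours over the whole course and the 5p arm was not. miR-652-3p fell by 0.60 ± 0.13 on the log2 scale per 24 h (24 arrays, limma adjusted p = 0.000339). A negative rate was called for 37.3% of all miRNAs at RT, so the call by itself is common there. The rate of miR-652-5p was -0.19 ± 0.12 (limma adjusted p = 0.147). The rate of the arm difference was 0.41 ± 0.18 (limma adjusted p = 0.0519 over 148 pairs, of which 39.9% were called positive), so a difference between the arms over the whole course at RT was not called. Leaving out the 96 h brain array gave 5p a rate of -0.35 (limma adjusted p = 0.0143). Leaving out any 1 of the heart arrays of 0, 1, 3, 48 or 96 h or the brain array of 0 h brought the arm difference past the threshold (limma adjusted p from 0.0218 to 0.0413).

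The fall of 3p at RT was largest in liver. There the 3p value was 4.94, 5.90, 5.87, 5.32, 5.02, 3.94, 1.81 and 1.20 over the 8 times from 0 to 96 h. From 1 h on each array was lower than the one before. The unscaled signal at 96 h was 4.18 units. The fewest spots well above background, reached at 48 h or 96 h, were 0 of 15 for 1 probe and 4 of 15 for the other. The last values are therefore close to background. In heart at RT 3p was 6.01, 5.76, 6.11, 7.66, 5.71, 5.90, 6.08 and 5.19, and in brain 6.89, 8.26, 7.82, 7.39, 7.33, 7.62, 6.81 and 6.33, in order of hours. Both ended at their lowest value on this scale, with 1 high array each at 6 h in heart and at 1 h in brain. The unscaled 3p signal was instead higher in the last array than in the first, at 74.4 against 52.9 units in heart and 173 against 84.8 in brain.

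The 3p rate at RT was -1.22 ± 0.17 in liver (limma adjusted p = 3.28e-06, a fall called for 32.8% of miRNAs there), -0.25 ± 0.17 in heart (limma adjusted p = 0.228, 11.2% called lower) and -0.33 ± 0.17 in brain (limma adjusted p = 0.126, 7.12% called lower). Without scaling, the rates of the 2 single 3p probes were -0.57 and -0.80 in liver, 0.18 and 0.066 in heart, where the sign turned, and 0.061 and -0.0012 in brain. The tissues differed by the interaction of tissue and hours (limma F test, adjusted p = 0.00748), a call made for 24.5% of all miRNAs. With normexp background correction this call was lost (limma adjusted p = 0.628). For 5p that test gave adjusted p = 0.310 in limma. Within liver, Pearson's r of 3p with hours was -0.94 (8 arrays, exact permutation p = 0.000843, adjusted 0.00506 over the 6 relations of 2 arms in 3 tissues) and Spearman's rho was -0.76 (exact permutation p = 0.0368, adjusted 0.110). Without the 2 arrays farthest from the median hour r was -0.83. Of the other 5 relations, none passed by either coefficient (exact permutation, lowest adjusted p = 0.0821 by Pearson and 0.0923 by Spearman).

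**Figure D2:**
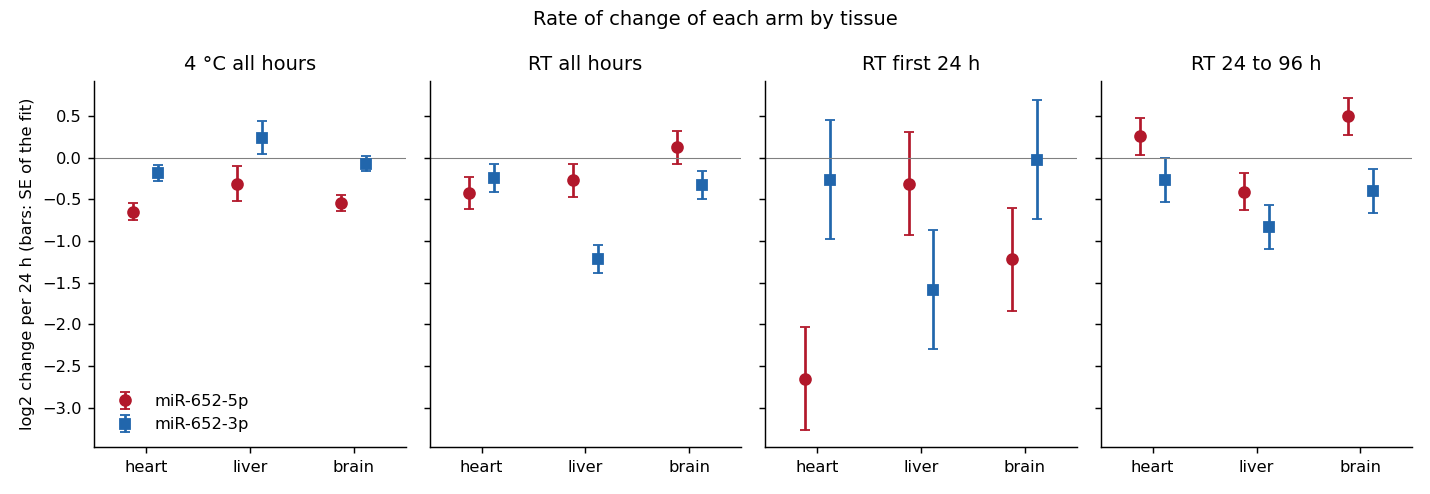
Rate of miR-652-5p (red circles) and miR-652-3p (blue squares) per 24 h on the log2 scale by tissue, with the SE of the fit, for 4 °C, all hours at RT, the first 24 h at RT and 24 to 96 h at RT. The 3p rate in liver over all hours at RT is -1.22, and the 5p rate in heart is -2.65 in the first 24 h and 0.25 afterwards.

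In heart and brain the deposited values of miR-652-5p went down and then up again at RT. In heart its value was 8.82, 8.56, 8.33, 7.78, 6.86, 6.19, 6.39 and 6.94 over the 8 times. It was lower at each step to 24 h, where it stood 6.19-fold below 0 h, and higher at both later steps. The unscaled signal went from 374 units in the first array to 66.7 at 24 h and 254 in the last.

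In brain at RT 5p was 8.55, 6.75, 7.43, 7.05, 6.41, 6.62, 6.89 and 8.06 over the 8 times. The lowest array, at 12 h, was 4.39-fold below 0 h, and 96 h was 3.14-fold above 12 h. In liver at RT 5p was 8.17, 8.98, 9.12, 8.16, 8.24, 8.42, 8.64 and 7.32, with the highest value at 3 h and the lowest at 96 h. Its unscaled signal had another order, lowest at 0 h (144 units) and highest at 24 h (622), with 390 at 96 h. The deposited value at 24 h was thus below that at 0 h in heart and brain and not in liver. In brain most of that drop lay between the single arrays of 0 h and 1 h, with 6.75 at 1 h and 6.62 at 24 h.

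Over the first 24 h at RT the 5p rate was -1.40 ± 0.42 per 24 h (18 arrays, limma adjusted p = 0.0274), a fall called for 2.45% of all miRNAs. The 3p rate over these hours was -0.63 ± 0.43 (limma adjusted p = 0.252) and the rate of the arm difference was -0.77 ± 0.64 (limma adjusted p = 0.429, with 6.08% of pairs called negative). The 5p rate was -2.65 ± 0.62 in heart (limma adjusted p = 0.0696, where 0% of miRNAs were called negative), -1.22 ± 0.62 in brain (limma adjusted p = 0.746) and -0.31 ± 0.62 in liver (limma adjusted p = 0.658). Over the 7 scalings compared, it ran from -2.72 to -2.20 in heart, from -1.80 to -0.53 in brain and from -1.46 to 1.93 in liver.

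From 24 to 96 h, a window chosen after the values were seen, the 3p rate was -0.50 ± 0.16 (9 arrays in all, limma adjusted p = 0.0366), a fall called for 17.2% of miRNAs. The 5p rate was 0.11 ± 0.17 (limma adjusted p = 0.595). Heart had a 5p rate of 0.25 ± 0.22, brain of 0.50 ± 0.22 and liver of -0.41 ± 0.22, and none of these passed (limma adjusted p = 0.391, 0.210 and 0.282). Over the 7 scalings the 5p rate after 24 h ran from -0.09 to 0.61 in heart, where the 75th percentile over all miRNAs turned its sign, and from 0.34 to 0.86 in brain. The arm difference rose by 0.61 ± 0.18 per 24 h without passing (limma adjusted p = 0.0583, with 3.38% of pairs called positive).

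The arm difference at RT therefore had a course of its own in each tissue. In liver it was between 2.83 and 3.25 up to 12 h and then 4.48, 6.83 and 6.12 in the 3 later arrays. Its values at 48 h and 96 h rest on unscaled 3p signals of 4.37 and 4.18 units, close to background. In heart it was 2.80 at 0 h, between 0.13 and 1.15 from 6 to 48 h, and 1.75 at 96 h. In brain it was 1.66 at 0 h, at or below 0.08 from 1 to 48 h and 1.73 at 96 h, so the first and last arrays were nearly alike while those between were lower.

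**Figure D3:**
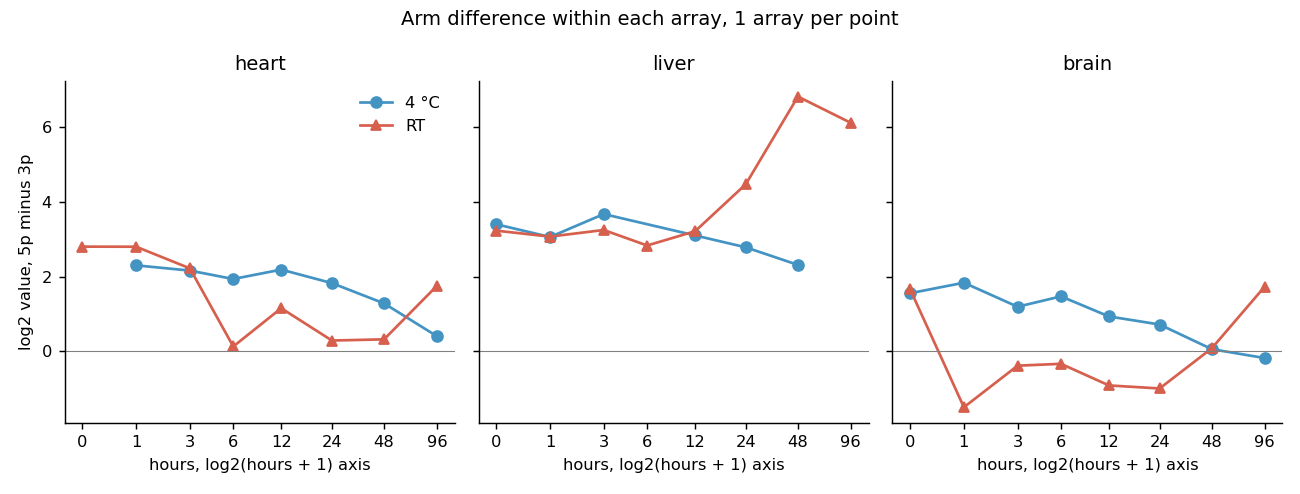
Log2 value of 5p minus 3p within each array against hours on a log2(hours + 1) axis, for 4 °C (blue circles) and RT (orange triangles), 1 array per point. At 4 °C the difference goes down in all 3 tissues. At RT it returns to 1.73 in brain at 96 h and reaches 6.83 in liver, where the 3p signal is then close to background.

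Among all pairs, 64 of 148 had a negative rate of the arm difference at 4 °C, and 33 of these had a positive one at RT, as miR-652 did. Next to miR-652 in order at RT stood miR-7069 (0.38) and miR-382 (0.43), whose rates at 4 °C were 0.22 and -0.05 against -0.48 for miR-652.

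**Figure D4:**
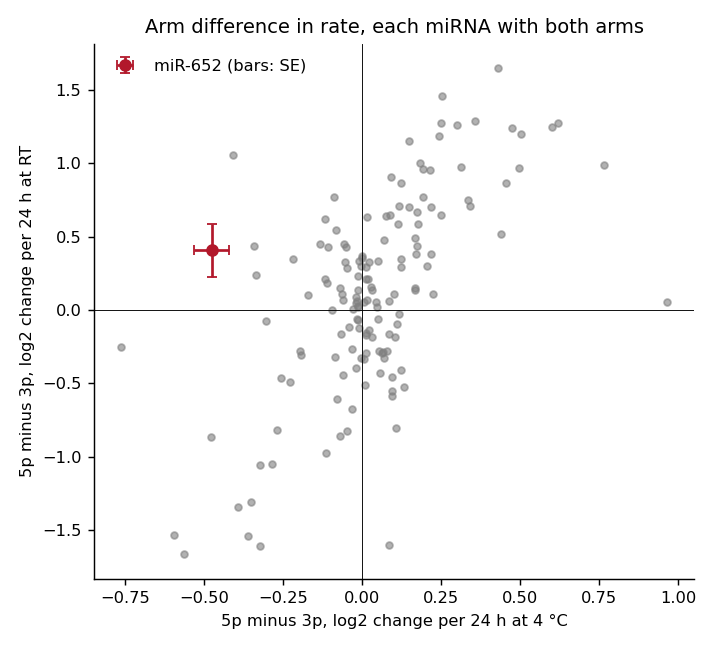
Rate of 5p minus 3p per 24 h on the log2 scale at 4 °C (horizontal) and at RT (vertical) for the 148 miRNAs with both arms analysed, with miR-652 in red and its SE. miR-652 lies at -0.48 at 4 °C and 0.41 at RT.

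Both high 3p arrays at RT also held more of the blood cell miRNAs, a list of 8 led by the red cell miRNA miR-451a. The log2 of the list's summed level was 15.2 in heart at 6 h, against a median of 13.7 over the 8 arrays (range 12.9 to 15.2). In brain at 1 h it was 11.5, against a median of 9.76 (range 9.36 to 11.5). Heart at RT after 24 h and 48 h had list levels of 14.8 and 14.4, with 3p at only 5.90 and 6.08. In heart at 4 °C the list was at 15.2 after 6 h, where 3p was 6.45, its highest value in that group. The brain array of 1 h also had the brightest control spots of its group, with a log2 mean of 10.6 against 9.78 to 9.92 on the others. The heart array of 6 h had 490 miRNAs detected, against 374 to 423 on the others up to 24 h. The part of blood or of these array traits in the 3p values was not tested. Without both arrays, a choice made after the values were seen, the 3p rate at RT was -0.56 ± 0.13 (limma adjusted p = 0.000831). In bulk tissue, fewer cells of a type and less RNA per cell cannot be told apart.

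Of the 8 blood cell miRNAs, 7 fell at RT over all hours and 0 rose, with a median rate of -0.61. Of 8 reference miRNAs, such as let-7a-5p and miR-16-5p, all 8 fell at RT, with a median of -0.65. Of these, 7 were detected on all 45 arrays and miR-191-5p on 8. The median over all 815 miRNAs was 0.07, with 304 that fell and 334 that rose (41%). The 3p rate of -0.60 thus lay near those list medians, whereas that of 5p did not. At 4 °C the medians were -0.05 for the reference list and -0.12 for the blood list, and the lowest rate in either was -0.16, against -0.56 for 5p.

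Other miRNAs followed 3p more closely than 5p from array to array. With each slide's mean removed, the 5 miRNAs most like it over 45 arrays, among 372 candidates, were miR-140-3p, miR-362-3p, miR-532-5p, miR-19b-3p and miR-107-3p, each with r = 0.96. The most like miR-652-5p were miR-295-5p (r = 0.65), miR-3968 (0.56), miR-7671-3p (0.54), miR-6412 (0.51) and miR-487b-3p (0.51). The arms correlated with each other at r = 0.23, with 0.60 over the 21 arrays at 4 °C and 0.18 over the 24 at RT. These values describe arrays that share scaling and animals, and include the 4 °C arrays by which 5p was chosen.

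With the RIN value in place of hours, 3p changed at RT by 0.26 ± 0.11 per RIN unit (limma adjusted p = 0.0318), a rise called for 33% of miRNAs, and 5p by 0.11 ± 0.08 (limma adjusted p = 0.226). With hours as a covariate the 3p slope was -0.29 (limma adjusted p = 0.142), so its sign turned. RIN values fell as hours rose.

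The scaling between arrays bore on the RT rates. Without scaling the median rate of all miRNAs at RT was 0.40 and the 3p rate was -0.26 ± 0.15 (limma adjusted p = 0.125), and with scaling to the array's control spots they were 0.45 and -0.16 ± 0.13 (limma adjusted p = 0.287). The 5p rate at RT was then 0.18 and 0.28, with its sign turned. Relative to the median of all miRNAs, both arms were lower under each of these settings. At 4 °C the 5p rate was between -0.62 and -0.49 under every scaling tried.

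**Figure D5:**
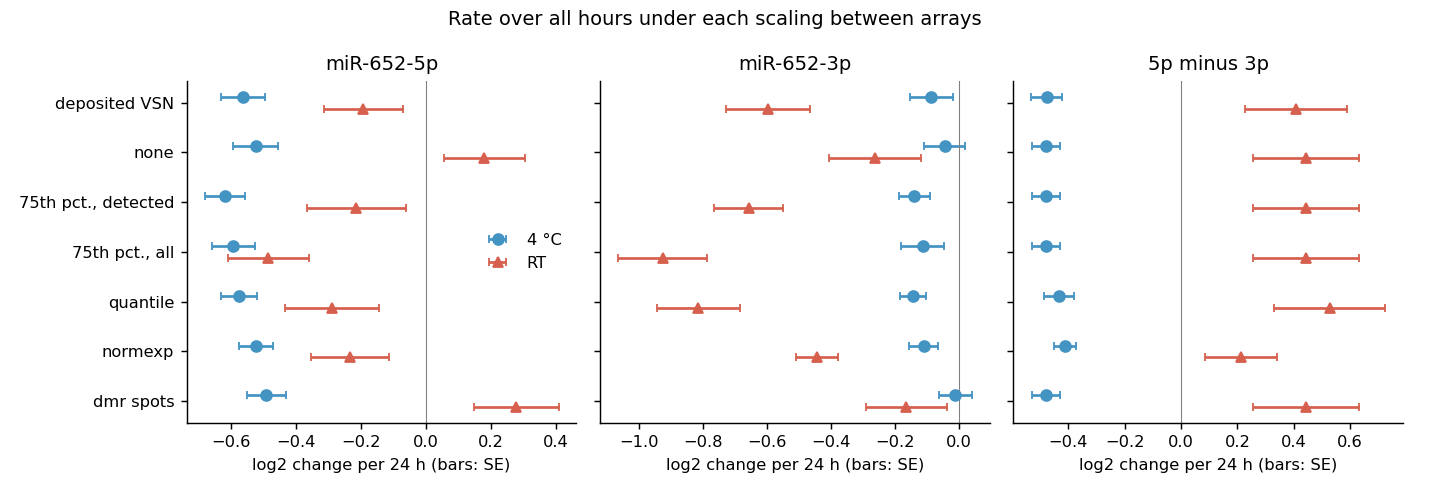
Rate per 24 h over all hours at 4 °C (blue circles) and RT (orange triangles), with SE, for 5p, 3p and 5p minus 3p under each scaling between arrays. The 4 °C rate of 5p stays between -0.62 and -0.49, while the RT rate of 5p lies on both sides of 0.

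The 2 probes of 5p moved together, with r = 0.999 over the 45 arrays after removal of slide means, and r was 0.933 for 3p. At 4 °C the unscaled rates of both 5p probes were -0.62 in heart, -0.33 and -0.32 in liver, and -0.48 in brain.

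Levels between tissues were compared for each arm over arrays with a RIN value above 6, with slide as a random block. The fitted correlation within slides was 0.02, so pieces of 1 organ counted almost as independent. Tissue varied only between slides, and the liver arrays were 5 at 4 °C and 1 at RT. The p-values of these levels therefore do not measure the scatter between animals or slides. miR-652-3p was highest in brain, at 7.48 ± 0.35 (SD, n = 14), then heart at 6.11 ± 0.53 (n = 13) and liver at 5.33 ± 0.48 (n = 6). Brain exceeded heart by 1.37 ± 0.19 (SE, limma adjusted p = 6.93e-08, with 47.1% of miRNAs called higher) and liver by 2.15 ± 0.23 (limma adjusted p = 4.41e-10, with 57.9% called higher). Under other scalings these differences ran from 0.59 to 2.26 and from 0.49 to 3.11, always past the threshold. Liver was below heart by a log2 difference of -0.79 ± 0.24 (limma adjusted p = 0.00568, with 44.9% called lower), but quantile normalization and normexp turned that sign. With normexp liver was called higher than heart (0.23, limma adjusted p = 0.0281). miR-652-5p was at 8.54 ± 0.55 in liver, 7.84 ± 0.99 in brain and 7.76 ± 0.94 in heart over the same arrays. No pair of tissues differed in 5p by this test (limma adjusted p = 0.869 for brain against heart, 0.145 for liver against heart and 0.152 for brain against liver). These arrays mix storage hours, over which 5p itself changed. Over the arrays up to 6 h liver minus heart was 0.22 against 0.77 in the main fit, and again no pair was called.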

How the data were processed

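Total RNA was hybridised to 1-colour Agilent miRNA arrays. The authors extracted signals with Agilent Feature Extraction (version 10.10.1.1 per the file headers) and deposited log2 values after VSN, which were the main values here. Their scale against the scanner intensity of the same arrays was linear (slope from 0.997 to 0.999 above 100 units, rank correlation 1). The authors deposited these intensity values, background-subtracted per miRNA, and they were used for unscaled signals and other scalings.

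Groups came from the labels. Of 46 arrays 45 were analysed. The 815 miRNAs detected on at least 5 of them were fitted with limma (3.58.1) in R (4.3.3), with tissue as a block and Benjamini-Hochberg adjustment over all 815 or over the 148 arm pairs, at 0.05. Permutation tests within tissues were exact and two-sided. The slope fit was tested on simulated data with 815 miRNAs on the RT design, where it called 61% of rates of 0.5 and 90% of rates of 1 per 24 h. The simulated noise was independent between miRNAs and between arrays, so these shares need not hold for the real arrays. The level fit used slide as a random block over 33 arrays with a RIN value above 6.

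Alternatives were no scaling, scaling to the 75th percentile, to quantiles or to 8 control probes, normexp with an offset of 50, other filters, other hours and leaving out each array. Signals were floored at 1 before log2. The files hold no mean signal, so normexp used median signals. The named miRNAs were both arms, the 5 most like each arm among those detected on at least 30 arrays, the pairs next to miR-652 at RT, and reference, blood cell and tissue marker lists. The members and lists were chosen with earlier results of these data known. Sequences were from RefSeq. Python (3.11.15) was used for tables.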

Additional observations from a re-analysis of the deposited data

Results flagged for a closer look

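The miR-652-3p value of heart at RT after 6 h, 7.66, stood apart from the other 7 arrays of its group, with a gap to the nearest of 0.629 of the group's range. How often chance gives such a gap was not computed, and 18 sets of values were looked at. The blood cell miRNAs were at their highest of that group in the same array, and their part in the value was not tested.

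The rate of miR-652-3p at RT differed between tissues (limma F test, adjusted p = 0.00748), with liver lowest at -1.22 per 24 h. The tissues share 1 mouse, and tissue and slide cannot be told apart.

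The heart array of 0 h at 4 °C that the study dropped had miR-652-5p at 6.23 and miR-652-3p at 3.88. Its arm difference was 2.35, beside 2.30 in the 1 h array.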

How the results depend on the processing

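Of the alternative values, 312 kept their side of the threshold or, at 4 °C, moved by less than the spread between tissues (rates per doubling of hours, another unit, were compared by direction only). Another 28 gained a call, 10 lost it, 6 moved further and 4 reversed. The 312 include sign changes between values not called. For example, the RT rate of 5p turned to 0.18 without scaling, 0.28 with control spots and 0.11 from 24 to 96 h. The RT arm difference turned to -0.77 over the first 24 h, and the 5p slope with the RIN value to -0.16 without scaling. Apart from leaving out 1 array, the values outside the 312 follow, and their cause was not tested. The RT rate of 5p was called with the 75th percentile over all miRNAs (-0.48), with log2 hours (-0.20 per doubling), without 96 h (-0.55), over the first 24 h (-1.40), without brain (-0.35), and over the first 24 h without the 2 arrays of highest 3p (-1.52, chosen after seeing the data). The RT rate of 3p lost its call without scaling (-0.26), with control spots (-0.16), over the first 24 h (-0.63, and -0.48 without those 2 arrays) and with Bonferroni adjustment (-0.60). The RT arm difference was called with both 75th percentiles and control spots (0.44 each), quantiles (0.53) and without heart (0.70). Without scaling its rate was the same 0.44 and not called (limma adjusted p = 0.0510). The percentiles and control spots thus left the rate unchanged, and those calls differ only by the fit and adjustment over all pairs. At 4 °C the 5p rate was -0.77 over the first 24 h, and the arm difference was -0.41 with normexp, -0.61 without 96 h, -0.66 over the first 24 h and -0.56 without the tissue block. The tissue difference of 3p at RT had an adjusted p of 0.628 with normexp. The slope with the RIN value was called for 5p with the 75th percentile over all miRNAs (0.32) and normexp (0.18). For 3p it was not called without scaling (0.0069), and it reversed with control spots (-0.024) and with hours as a covariate (-0.29).

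For levels, the 5p difference of liver minus heart was called with the 75th percentile over miRNAs detected on all arrays (1.48), quantiles (1.75) and normexp (1.29). That of brain minus liver was called with both percentiles (-1.46 and -1.64), quantiles (-2.33) and normexp (-1.10). The 3p difference of liver minus heart was not called with the 75th percentile over miRNAs detected on all arrays (-0.11) or control spots (-0.85) and reversed with quantiles (0.091) and normexp (0.23). Within tissues at RT, Spearman's rho of 3p in liver was -0.76 and not called, and r of 3p in brain was -0.91 and called with the 75th percentile over miRNAs detected on all arrays. Leaving out 1 array at a time gave rates from -0.35 to -0.14 for 5p at RT, from 0.32 to 0.51 for the arm difference at RT and from -0.53 to -0.46 for the arm difference at 4 °C. The dim 3p signal in liver limits its late values.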
